A study of Homo sapiens with 4 samples.

Results

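The BCL2 family genes described here are 10 genes that govern survival and death at the mitochondrion, measured in MDA-MB-231 cells with and without a hairpin against TRPM7. They were taken by gene symbol: the 10 genes, of 30925 gene symbols on the array, had 22 of the 47323 probes, between 1 and 4 each. MDA-MB-231 is an established human breast cancer line that carries mutant p53. In the control group (shCntrl, n = 2 arrays) the transduced hairpin RNA was scrambled, and in the other group (shT7#1, n = 2 arrays) it targeted TRPM7, a divalent cation channel fused to a kinase. Both groups were transduced cultures of the same line grown in the same medium, RNA was read on Illumina HumanHT-12 v4 bead arrays, and a single TRPM7 hairpin stands for the knockdown. Whether the 2 numbered arrays of a group came from separate cultures is not stated in the labels, so the spread behind every p-value may be technical.

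Proteins of the BCL2 family decide whether the outer mitochondrial membrane stays intact. The survival members BCL2, BCL-XL, MCL1 and BCL2A1 hold the pore formers BAX and BAK in check. Members that share only the BH3 domain, such as BIM, PUMA and NOXA, bind the survival proteins, and some also activate BAX and BAK directly. An open pore releases cytochrome c, which leads to assembly of the apoptosome and activation of caspases. In breast cancer cells the balance within the family is known to set the response to many drugs, and much of its control lies in protein turnover and binding, which transcript arrays do not read.

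The arrays agreed closely, with log2 values of 14731 tested genes correlating at 0.994 and 0.993 within groups and between 0.982 and 0.984 across them. TRPM7 itself was not above background on any array at its single probe, so the knockdown was taken from the labels. SOX4, named in the series title, fell by 2.12 log2 units in shT7#1 (limma adjusted p 0.00218). All 6 markers fixed for MDA-MB-231, among them VIM, CD44 and AXL, were above background on all 4 arrays. Of 6 luminal epithelial markers, EPCAM, ERBB2 and KRT18 were above background on all 4 arrays at their brightest probes, and ESR1, PGR and CDH1 were above background on none. Of 6 leukocyte markers, PTPRC, CD3E and ITGAM were above background on no array. CD14 was above background on all 4 arrays at its brightest probe, at 7.37 and 7.31 in shCntrl against 7.36 and 7.50 in shT7#1, CD79A on 3 arrays and LYZ on 1. The mean log2 level of the list lay between 5.11 and 5.19 in shCntrl and between 5.13 and 5.17 in shT7#1. Of 5 fibroblast markers 1, the collagen gene COL1A2, was above background on all 4 arrays at its brightest probe, where its difference did not pass (adjusted p 0.0544), while at its other probe it fell by 2.32 log2 units (limma adjusted p 0.00259 over all detected probes). LUM was above background on 3 arrays, COL1A1 on 1, and DCN and PDGFRA on none. The mean level of the fibroblast list lay between 5.02 and 5.22 in shCntrl and between 4.91 and 5.10 in shT7#1. Of 4 endothelial markers, PECAM1 was above background on 3 arrays, and VWF, CDH5 and TEK on none. Their mean level lay between 4.69 and 4.74 in shCntrl and between 4.59 and 4.69 in shT7#1. The part of CD14-expressing or COL1A2-expressing cells in the results was not tested.

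None of the BCL2 family members chosen for this report passed the test between shT7#1 and shCntrl. Of the 10 genes 9 were tested, each at its brightest probe above background on at least 2 of the 4 arrays, and limma called 0 higher and 0 lower after Benjamini-Hochberg adjustment over all 14731 genes. Over all tested genes 957, or 6.5%, were called (2.95% higher and 3.55% lower), so at this share a list of 9 genes without a call is near the background. At an unadjusted p under 0.05 there were 5 of the 9 members, against 25.9% of all genes. The arrays of the groups did not overlap for 6 of the 9 members, where 55.7% of all genes show such a separation. Of the 6, 4 were higher and 2 lower in shT7#1, against 27.5% and 28.2% of all genes. The members lay higher in shT7#1 for 7 genes and lower for 2, with a median log2 difference of 0.39 against -0.00 over all genes. The tested members passed a filter on low values, and the list was chosen with earlier results of these data known, so these counts are a description. In RNA of whole cultures, fewer cells that express a gene and less RNA per cell cannot be told apart.

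**Figure D1:**
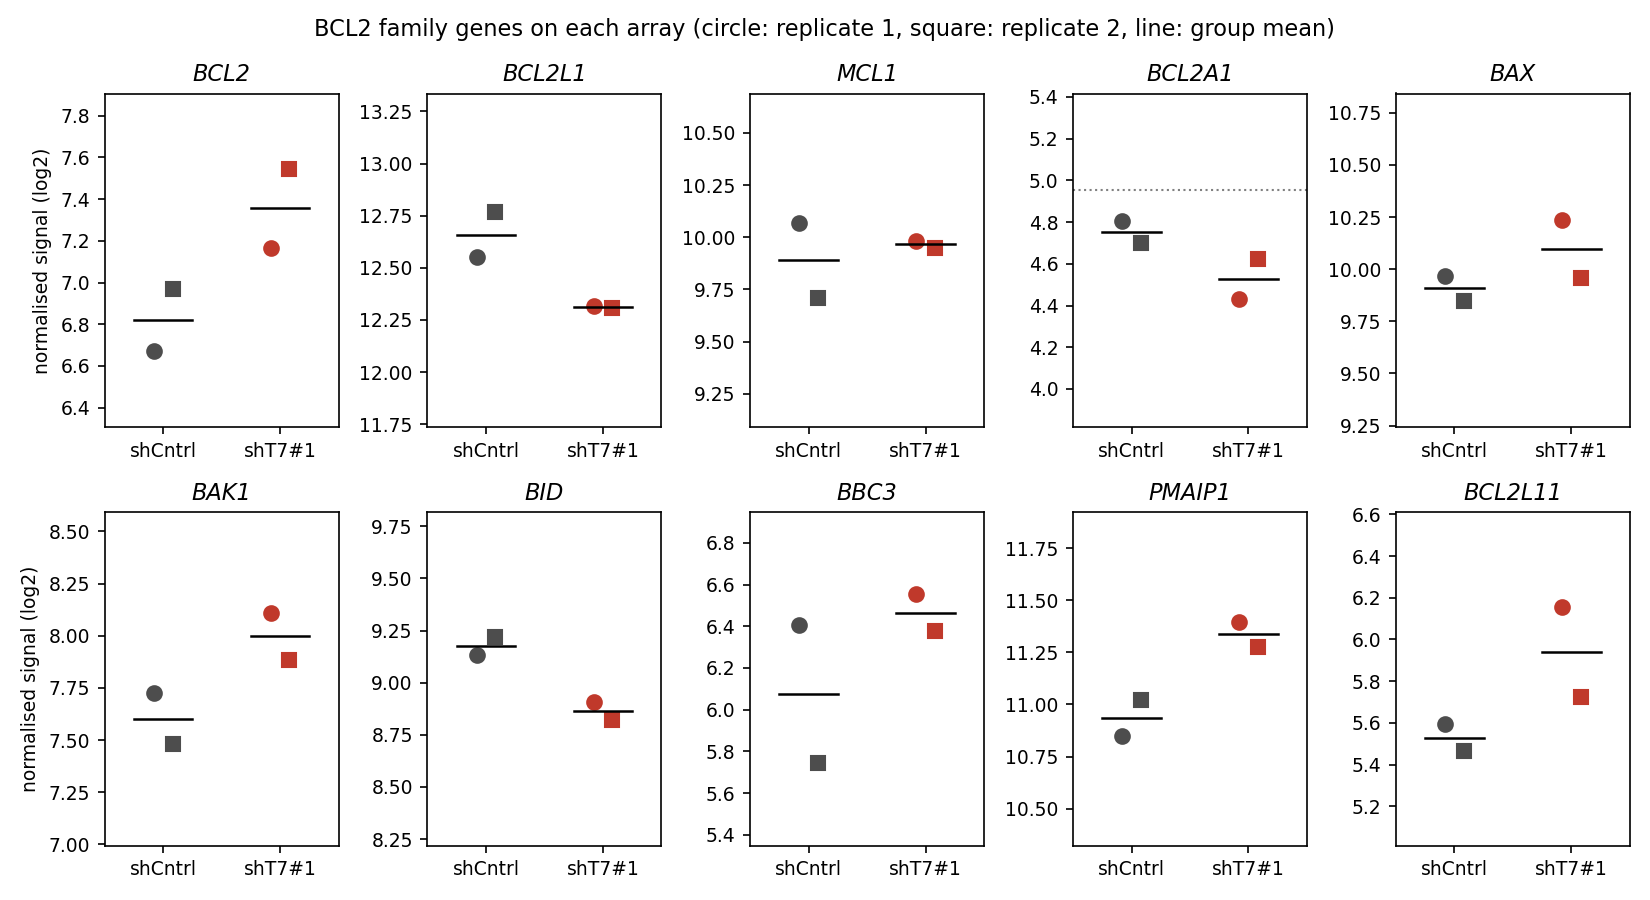
Normalised log2 signal (y axis) of the 10 BCL2 family genes on each array, at the probe used in the test or, for BCL2A1, at its only probe. Circles are replicate 1, squares replicate 2, lines the group means over 2 arrays, and all panels span the same range of log2 units. The dotted line in the BCL2A1 panel is the mean detection floor, above all 4 of its points. The groups are apart for BCL2, BCL2L1, BAK1, BID, PMAIP1 and BCL2L11, while those of MCL1, BAX and BBC3 overlap.

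Among the survival genes, BCL2 had the largest difference of any tested member at the brightest probe. BCL2 encodes the founding member of the family. It read 6.67 and 6.97 (log2 signal) on the shCntrl arrays and 7.17 and 7.54 on the shT7#1 arrays. Both shT7#1 arrays lay above both shCntrl arrays, but the spread within each group was wide. The standard deviations were 0.21 and 0.27 (n = 2 each). Replicate 2 was the higher array in both groups, and with the replicate number as a block the limma adjusted p was 0.0547. The difference was 0.54 ± 0.18 log2 units (SE), or 1.45-fold, with a 95% confidence interval from 0.09 to 0.99 and a limma adjusted p of 0.138. Without 1 array the difference lay between 0.35 and 0.72. A second BCL2 probe read 6.30 and 6.57 in shCntrl against 6.92 and 6.90 in shT7#1. The groups were apart at that probe too, with a difference of 0.47 ± 0.14 (SE) and a limma adjusted p of 0.115 in a fit over all detected probes. The other pair of BCL2 probes was above background on no array.

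BCL2L1 was the survival gene that lay lower in shT7#1. It encodes BCL-XL and, through splicing, a shorter form that promotes death, and which form each probe reads was not analysed here. The log2 signal was 12.55 and 12.77 in shCntrl and 12.32 and 12.31 in shT7#1. Both shT7#1 arrays lay below both shCntrl arrays. The difference was -0.35 ± 0.13 log2 units (SE), with a confidence interval from -0.67 to -0.03 and a limma adjusted p of 0.165. The second probe gave nearly the same size, -0.37 ± 0.13 (SE), from 9.62 and 9.53 in shCntrl to 9.13 and 9.27 in shT7#1. Neither probe passed. Without background correction the BCL2L1 difference of -0.34 did pass, with a limma adjusted p of 0.0245.

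MCL1, a short-lived survival protein that many cells need continuously, differed little at its brightest probe. Its log2 signal was 10.07 and 9.71 in shCntrl and 9.98 and 9.95 in shT7#1. Those of shT7#1 lay between the shCntrl arrays. The difference was 0.08 ± 0.16 log2 units (SE) and its confidence interval, from -0.31 to 0.46, holds neither a halving nor a doubling of the signal at this probe. The limma adjusted p was 0.809. Its second probe read 8.17 and 8.17 in shCntrl and 8.60 and 8.39 in shT7#1, a difference of 0.32 ± 0.13 (SE) with an adjusted p of 0.209. The sign at the brightest probe turned, to -0.10, when shCntrl replicate 2 was left out.

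BCL2A1, a survival gene best known from leukocytes and as a target of NF-kB, was not above background on any array. Its detection p was 0.108 and 0.158 in shCntrl and 0.658 and 0.240 in shT7#1. Its log2 signals of 4.80 and 4.70 and of 4.43 and 4.62 all lay under the detection floors of the arrays, which were between 4.92 and 4.98. No fold was computed and the gene was not tested. The authors' deposited table lists BCL2A1 at 0.63-fold, with mean log2 values of 3.06 and 2.39.

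Both pore formers lay higher in shT7#1 without passing. BAK1 encodes BAK, which sits in the outer mitochondrial membrane. Its log2 signal was 7.73 and 7.48 in shCntrl against 8.11 and 7.89 in shT7#1. The groups did not overlap, and the difference was 0.39 ± 0.15 log2 units (SE) with a confidence interval from 0.02 to 0.76 and a limma adjusted p of 0.171. BAX, which moves to the membrane from the cytosol, read 9.97 and 9.85 in shCntrl and 10.24 and 9.96 in shT7#1 at its brightest probe. Here the groups overlapped, and the difference of 0.19 ± 0.14 (SE) had a limma adjusted p of 0.469. It was 0.05 without shT7#1 replicate 1, 0.33 without shT7#1 replicate 2 and 0.38 with the mean over its detected probes. A second BAX probe read 6.18 and 6.17 in shCntrl and 6.90 and 6.62 in shT7#1. At that probe the groups were well apart. Its difference of 0.58 ± 0.14 (SE) had an adjusted p of 0.0772, the lowest of all 16 detected BCL2 family probes. Another BAX probe was above background on 1 array only. The authors' deposited table gives BAX at 1.42-fold, above the 1.14-fold of the brightest probe.

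Of the 4 genes of the BH3-only class, PMAIP1 came closest to the threshold among all tested members. PMAIP1 encodes NOXA, a partner of MCL1 that p53 and stress responses induce. The log2 signal was 10.85 and 11.02 in shCntrl and 11.40 and 11.28 in shT7#1. All values of shT7#1 lay above those of shCntrl, and the difference was 0.40 ± 0.13 log2 units (SE), or 1.32-fold, with a confidence interval from 0.08 to 0.72. The limma adjusted p was 0.124. PMAIP1 passed under 2 other ways of handling background, with an adjusted p of 0.0131 without correction and 0.0443 with a larger offset. Its second probe read 7.67 and 8.20 in shCntrl and 8.15 and 8.72 in shT7#1. At that probe the groups overlapped, since replicate 2 was the higher array in both, and the difference was 0.49 ± 0.26 (SE).

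BCL2L11, which encodes BIM, lay near the detection floor. Its log2 signal was 5.59 and 5.47 in shCntrl against 6.16 and 5.72 in shT7#1. The groups did not overlap, and the difference of 0.41 ± 0.17 log2 units (SE) had a limma adjusted p of 0.214. It was 0.19 without shT7#1 replicate 1, 0.63 without shT7#1 replicate 2 and 0.15 without background correction. Its other pair of probes was above background on no array. BBC3, which encodes PUMA, a further p53 target, read 6.41 and 5.74 in shCntrl against 6.55 and 6.38 in shT7#1. The groups overlapped and the shCntrl arrays stood far from each other, with a standard deviation of 0.47 (n = 2). The difference of 0.39 ± 0.23 (SE) had a limma adjusted p of 0.358, and it was 0.06 without shCntrl replicate 2 and 0.72 without shCntrl replicate 1.

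BID was the BH3-only gene that lay lower in shT7#1. Caspase-8 cleaves the BID protein, which links death receptors to the mitochondrion. The log2 signal was 9.13 and 9.22 in shCntrl against 8.91 and 8.82 in shT7#1. The groups did not overlap and the arrays within each group were close, with a difference of -0.31 ± 0.12 log2 units (SE), a confidence interval from -0.60 to -0.02 and a limma adjusted p of 0.168. The remaining probes did not settle the direction. A second probe above background on all 4 arrays differed by -0.12 ± 0.12 (SE), and another, above background on 2 arrays, by 0.32 ± 0.28 (SE). With the mean over the 3 probes the BID difference was -0.04.

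**Figure D2:**
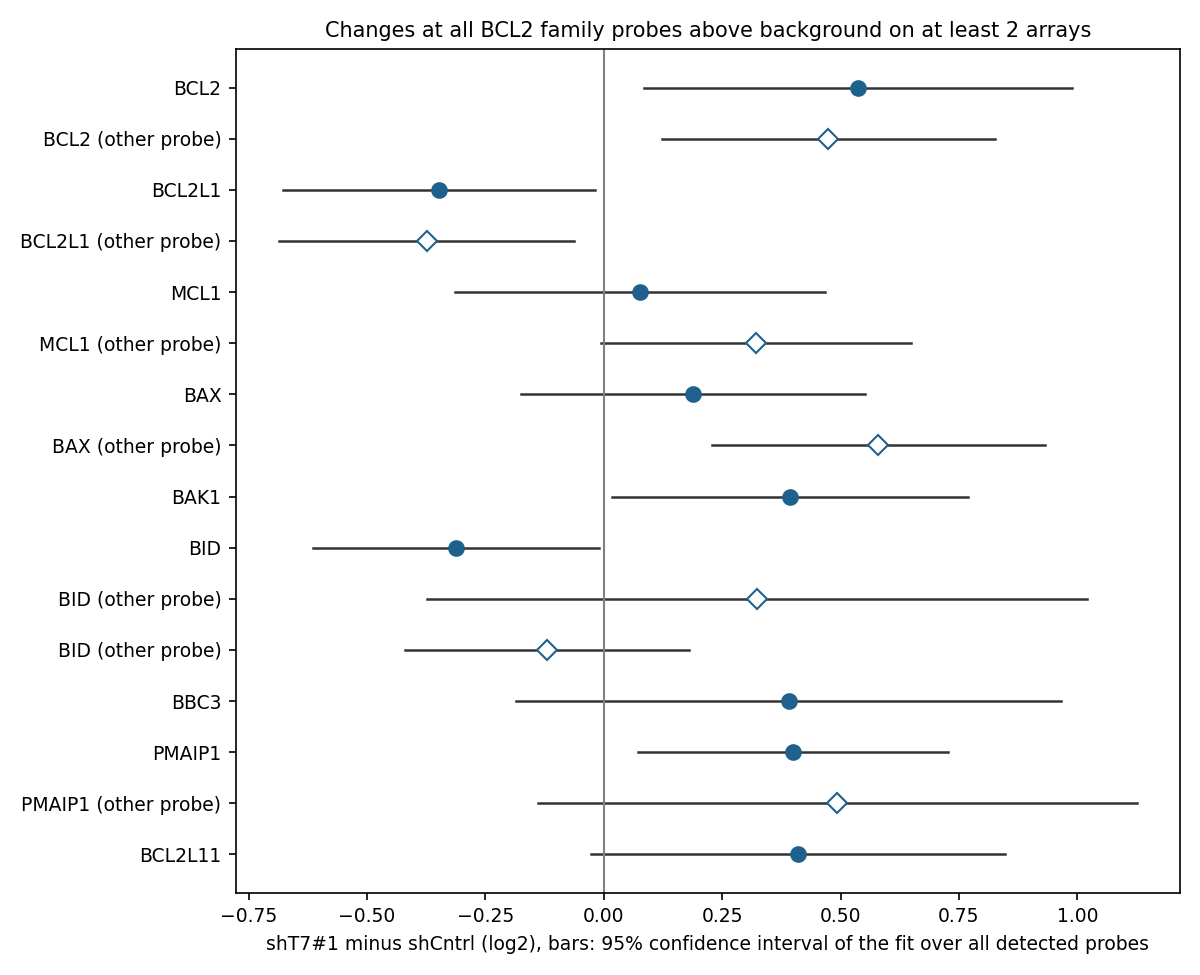
Difference between shT7#1 and shCntrl in log2 units (x axis) at each of the 16 BCL2 family probes above background on at least 2 arrays. Filled circles are the probes used for the gene, open diamonds the other probes of that gene, and bars the 95% confidence intervals of the fit over all detected probes. The BCL2L1 probes lie on the same side of 0, as do those of BCL2, and the BID probes lie on both sides.

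By role, the tested survival genes had a median log2 difference of 0.08 over 3 genes. The pore formers had 0.29 over 2 genes and the BH3-only genes 0.39 over 4 genes. The survival median is the MCL1 value at its brightest probe, and the second MCL1 probe differed by 0.32. The pore median takes BAX at its brightest probe, at 0.19, and the second BAX probe differed by 0.58. With the mean over its detected probes BAX differed by 0.38. An order between the roles was not tested. Each class with more than 2 tested genes held members on both sides of 0. Of the 6 genes with more than 1 detected probe, 5 had all these probes on the same side, and BID did not. With the processing reported here, the smallest log2 difference among all called genes was 0.55 in size, above the 0.54 of BCL2 at its brightest probe. This is no fixed limit, since passing also depends on the spread and the processing. Under other background handling BCL2L1 passed at -0.34 and PMAIP1 at 0.38 and 0.39.

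BIK and BNIP3L passed among the other genes of the family. Over all 7 further cell death lists 3 of 64 tested genes were higher and 2 lower, near the 2.95% and 3.55% of all genes. Of 13 further BCL2 family genes 8 were tested, of which 1 rose, 1 fell and 6 were not called, with a median log2 difference of 0.09. BIK, a BH3-only protein of the endoplasmic reticulum, read 4.78 and 4.92 in shCntrl, not above background, and 5.71 and 5.71 in shT7#1. With the background correction used here it was at least 1.70-fold higher in shT7#1, with a limma adjusted p of 0.0190. BIK had entered the test only through its shT7#1 arrays, so this p-value is not separate support for the rise. With detection required on all 4 arrays BIK was not tested. The size of this change depended on the background handling, at 0.26 log2 units without correction, 0.46 with an offset of 50, 0.86 as reported and 1.70 on the authors' processed values, where the authors' own limit on low genes gave an adjusted p of 0.175. BNIP3L, a mitophagy receptor that hypoxia induces, read 10.71 and 10.61 in shCntrl and 9.81 and 9.63 in shT7#1, a change of -0.94 ± 0.13 log2 units (SE) with a limma adjusted p of 0.0175. At the second probe the difference was -0.54, with an adjusted p of 0.0883.

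Of 8 tested genes of the apoptosome and caspases reported here, 0 rose, 1 fell and 7 were not called, where 6.5% of all genes were called. The median was 0.03. The gene that fell was CASP6, an executioner caspase. It read 9.72 and 9.66 in shCntrl and 9.09 and 9.03 in shT7#1, and it fell by 0.63 log2 units (limma adjusted p 0.0373). The other detected CASP6 probes differed by -0.60 and -0.43. Leaving out any 1 of the 4 arrays ended the calls of BIK, BNIP3L and CASP6, and calls over all genes also became far fewer. In these fits the log2 difference lay between 0.79 and 0.92 for BIK and between -1.02 and -0.85 for BNIP3L. That of CASP6 lay between -0.66 and -0.60. The call of CASP6 also ended with median scaling (adjusted p 0.0587) and on the authors' processed values (0.0929), and that of BNIP3L on the authors' processed values (0.0920).

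The largest change on these lists was that of BIRC3, an inhibitor of apoptosis that NF-kB induces. Of 8 tested inhibitors of apoptosis and their antagonists, 1 rose, 0 fell and 7 were not called, against 6.5% of all genes called. The median was 0.28. BIRC3 read 8.42 and 8.39 in shCntrl and 10.94 and 10.95 in shT7#1. It rose by 2.54 ± 0.11 log2 units (SE), or 5.82-fold, with a limma adjusted p of 0.000982, and its other detected probes differed by 1.53 and 1.71. No processing of the intensities ended its call, while on the authors' processed values the adjusted p was 0.0634.

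BCL2A1, which was not tested, and BCL2L1 are known as NF-kB targets in other cells, as is BIRC3. The 250 bases before the start of each of these genes, and of PMAIP1 as the member nearest the threshold, are shown from RefSeq (GRCh38.p14), 5′ to 3′ on the strand of the gene. Capitals mark every match to GGGNNNNNCC on either strand, a loose form of the NF-kB binding motif, with overlapping matches joined. The stretches lie at chr11:102317234-102317483 (plus strand), chr15:79971197-79971446 (minus strand), chr20:31723964-31724213 (minus strand) and chr18:59899746-59899995 (plus strand).
BIRC3: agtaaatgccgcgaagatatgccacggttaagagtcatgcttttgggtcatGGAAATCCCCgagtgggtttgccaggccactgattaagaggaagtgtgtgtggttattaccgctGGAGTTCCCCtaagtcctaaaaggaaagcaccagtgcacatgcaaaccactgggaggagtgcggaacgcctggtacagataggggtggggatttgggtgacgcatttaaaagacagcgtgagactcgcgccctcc
BCL2A1: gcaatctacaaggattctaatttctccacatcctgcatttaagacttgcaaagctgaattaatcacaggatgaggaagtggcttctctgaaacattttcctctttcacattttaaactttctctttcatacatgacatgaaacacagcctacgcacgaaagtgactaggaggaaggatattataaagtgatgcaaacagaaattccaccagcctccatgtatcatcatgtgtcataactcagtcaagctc
BCL2L1: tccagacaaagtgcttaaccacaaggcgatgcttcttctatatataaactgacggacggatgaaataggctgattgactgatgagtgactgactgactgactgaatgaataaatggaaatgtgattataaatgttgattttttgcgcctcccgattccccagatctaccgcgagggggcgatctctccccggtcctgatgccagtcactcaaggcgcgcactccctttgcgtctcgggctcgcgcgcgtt
PMAIP1: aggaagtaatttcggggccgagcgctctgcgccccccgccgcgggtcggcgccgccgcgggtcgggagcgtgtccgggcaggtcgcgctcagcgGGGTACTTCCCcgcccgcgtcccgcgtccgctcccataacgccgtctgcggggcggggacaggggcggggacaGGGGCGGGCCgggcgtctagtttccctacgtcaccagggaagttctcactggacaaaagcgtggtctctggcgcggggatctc

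The motif had 2 matches before BIRC3, 3 before PMAIP1, 2 of which overlap, and 0 before BCL2A1 and BCL2L1. A sequence was matched for 9 of the 10 members, all but MCL1. The motif was found in 6 of these 9 windows and in 53.7% of the windows of 27305 genes. Among the windows with the motif, that of BCL2 lies inside the RefSeq span of the gene. Those of BID and BBC3 lie partly inside the spans of their genes. A match is a description of these letters, and a window without a match says only that they are not in it.

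Upstream of BID, the death receptor branch held no called gene. Of 11 tested genes 0 rose and 0 fell by limma, where 6.5% of all genes were called, and the median was -0.05. An unadjusted p under 0.05 was seen for 4 of them, against 25.9% of all genes. The lowest p was that of TNFSF10, which encodes the death ligand TRAIL, at 8.87 and 8.85 in shCntrl and 8.53 and 8.46 in shT7#1. Its difference was -0.37 ± 0.11 log2 units (SE), with a limma adjusted p of 0.117. Of 8 tested genes of outer membrane channels, released proteins and mitochondrial dynamics 0 were called by limma. Against the same 25.9% of all genes, 1 had an unadjusted p under 0.05. That gene was AIFM1, which encodes the apoptosis-inducing factor, with a difference of 0.31 ± 0.12 (SE) and a limma adjusted p of 0.178. The other detected AIFM1 probes differed by 0.23, 0.20 and 0.23.

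Among genes that control the turnover of the family, 1 of 8 tested rose, 0 fell and 7 were not called, with a median of -0.08. Over all genes 6.5% were called. The gene that rose was FBXW7, the substrate receptor of a ubiquitin ligase that acts on MCL1 and many other proteins. It read 7.52 and 7.73 in shCntrl and 8.52 and 8.31 in shT7#1, a change of 0.79 ± 0.14 log2 units (SE) with a limma adjusted p of 0.0373. At the second probe the difference was 0.16, and with the mean over its probes the adjusted p was 0.107. Leaving out any 1 array also ended the call, at log2 differences between 0.68 and 0.89. The call ended too on the authors' processed values (limma adjusted p 0.488) and without a detection filter (0.0540). Of 13 tested transcription factors that act on BCL2 family genes, 0 were called by limma. An unadjusted p under 0.05 was seen for 5, against 25.9% of all genes. HIF1A, the oxygen-regulated factor, had the lowest p, with a difference of -0.73 ± 0.17 log2 units (SE) and a limma adjusted p of 0.0687. The other detected HIF1A probes differed by -0.77 and -0.60, with limma adjusted p of 0.0619 and 0.0982 over all detected probes.

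**Figure D3:**
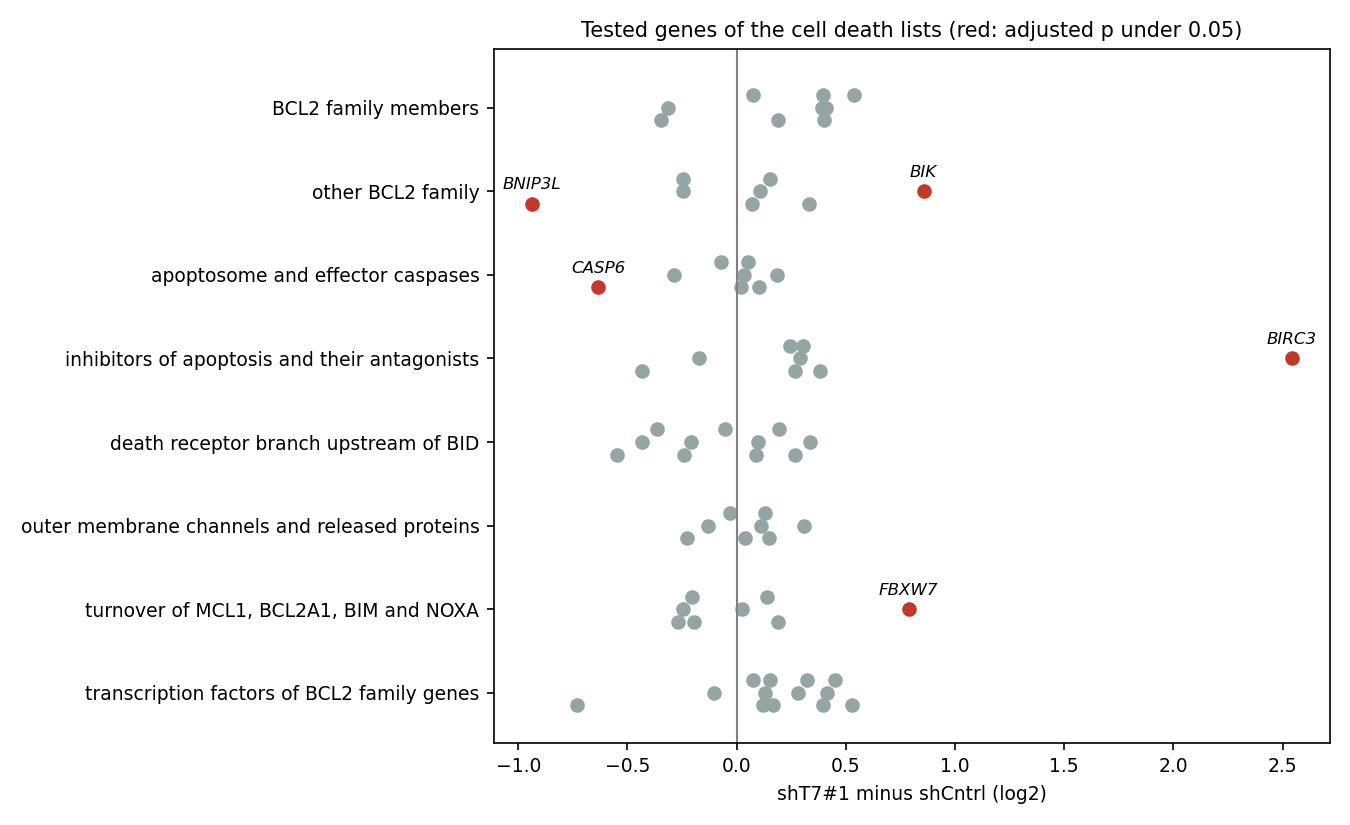
Difference between shT7#1 and shCntrl in log2 units (x axis) for the tested genes reported here, from the BCL2 family members and 7 further cell death lists (rows). Each point is a gene at its brightest detected probe, and red points with names passed at an adjusted p under 0.05. The members hold no red point, and BIRC3 stands apart at 2.54.

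The authors' deposited table gives the members' folds with the same signs as the differences above. It lists BBC3 at 1.46, BAX at 1.42, PMAIP1 at 1.38, BAK1 at 1.35, BCL2 at 1.30, BCL2L11 at 1.27 and MCL1 at 1.16, against 0.87 for BID and 0.78 for BCL2L1. On the authors' processed values limma also called 0 members, with 1.53% of 14083 genes called.

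**Figure D4:**
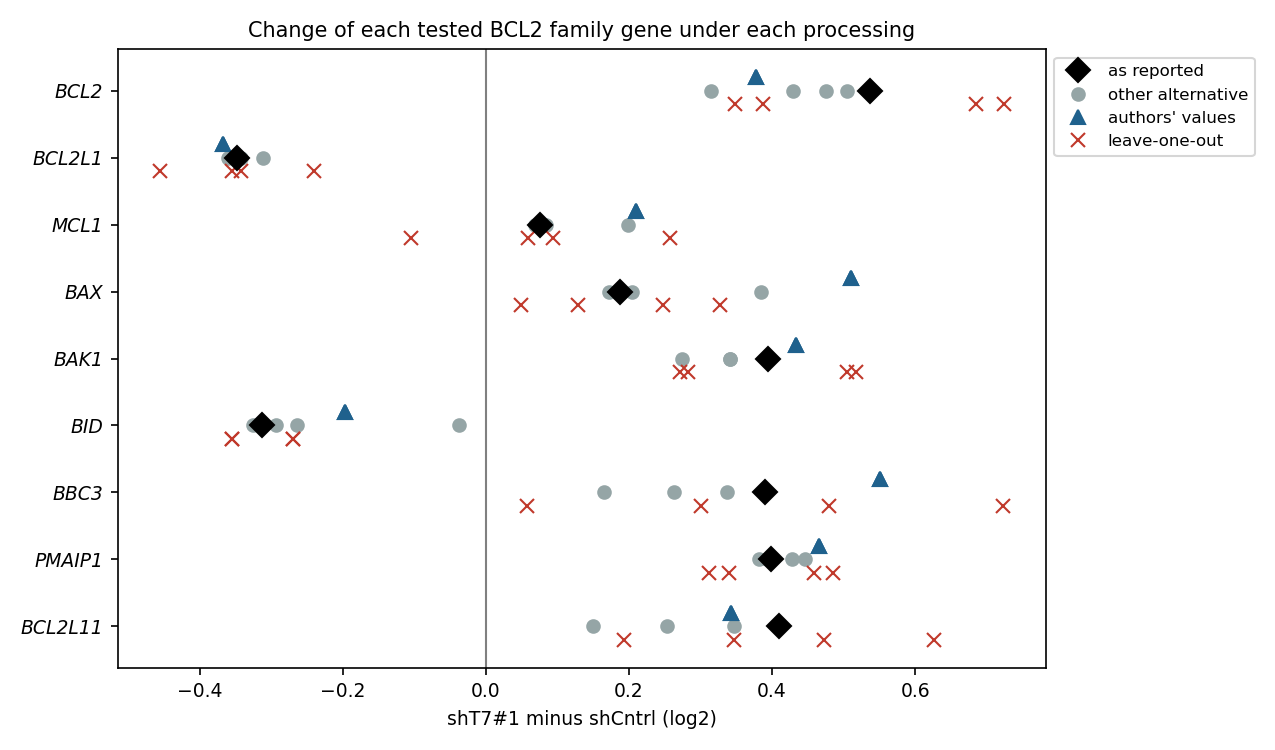
Log2 difference between shT7#1 and shCntrl (x axis) of the 9 tested BCL2 family genes under each way of processing. Black diamonds are the reported values, grey circles other settings on all 4 arrays, blue triangles the authors' processed values and red crosses fits without 1 array. BCL2L1 and BID stay below 0 throughout, MCL1 crosses 0 without shCntrl replicate 2, and the other 6 stay above 0.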

How the data were processed

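The authors deposited unnormalised signal intensities, each with a detection p-value, per probe and array, from GenomeStudio 2011.1 per the submitters' processing notes. A second table held the authors' processed log2 values, made with RMA in ArrayStar per the file headers. A further table gave the authors' mean log2 values and a linear fold ratio, per the file headers.

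Intensities were background-corrected by normexp (limma 3.58.1, R 4.3.3; negative control level inferred from detection p, offset 16), taken to log2 and quantile normalised. Probes with a detection p under 0.05 on at least 2 of 4 arrays entered, and each gene was read at its brightest such probe, giving 14731 genes. Symbols were updated through a RefSeq table (GRCh38.p14), in which all 10 members matched. The main test was limma (lmFit, eBayes) of shT7#1 against shCntrl, two-sided, with Benjamini-Hochberg adjustment over all genes and a threshold of 0.05. There were 2 residual degrees of freedom and 3.66 borrowed. For other probes of a gene the same fit was run over all detected probes. "At least N-fold" compares the bright group's mean with the dim group's, after raising each dim array's value to that array's detection floor where it lay below. The floor is the smallest normalised signal of any detected probe. The code was tested on simulated data. Only 4 arrays limit the precision.

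The members and lists were chosen with earlier results of these data known. Some genes are not reported here. Named were the members at every probe, every other called gene of 7 further lists, the gene of lowest p in a list without a call, and TRPM7 and SOX4. Alternatives covered background, scaling, filter, probe choice, the authors' values, a replicate block and leaving out arrays. No source used here gives slides or scan batches. Deviations of same-numbered arrays from their group means correlated at 0.12 over genes.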

Additional observations from a re-analysis of the deposited data

How the results depend on the processing

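The absence of a called gene among the chosen BCL2 family members held under most alternatives. It was lost without background correction, where 1 member was higher (PMAIP1) and 1 lower (BCL2L1), and with a normexp offset of 50, where 1 was higher (PMAIP1). In these settings 16.4% and 13.9% of all genes were called. Without any 1 array 0 members were called. MCL1 changed sign, to -0.10, without shCntrl replicate 2, and without 1 array its difference lay between -0.10 and 0.26. The cause was not tested. Over all genes the counts of higher and lower genes were 434 and 523 as reported, 1161 and 1262 without background correction, 962 and 1086 with offset 50, 699 and 818 with detection on all 4 arrays and 114 and 101 on the authors' processed values. They were 7 and 0 on the authors' values with the authors' own limit on low genes, a setting chosen after seeing the data. Leaving out 1 array gave 69 to 86 higher and 38 to 53 lower genes. Over the 7 further lists 3 genes were higher and 2 lower as reported, against 8 and 7 without background correction, 5 lower with offset 50, 1 lower with median scaling, 1 and 0 on the authors' values and 0 and 0 with the authors' limit. Without 1 array the counts were 1 and 0 in each case. The replicate block (the replicate number as a block) called 8.41% of all genes and 0 members. Only 2 arrays per group, and signals near background for BCL2L11, BBC3 and BIK, limit what these values can show.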
